A study of Mus musculus with 10 samples.

Results

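The genes of postsynaptic scaffolds and synaptic adhesion were chosen by symbol and made up 33 of the 29883 genes in the count table. They are the Dlg, Dlgap, Shank and Homer scaffold families, the neuroligins, neurexins, LRRTM and contactin-associated adhesion proteins, and 7 signalling and PDZ adaptors of the postsynaptic density (PSD). All 33 were measured, with at least 761 counts in every library. The nucleus accumbens (NAc) of the ventral striatum was taken from male mice of the inbred strains C57BL/6J (B6, 5 mice) and DBA/2J (D2, 5 mice), at 9 weeks of age. The labels give no treatment for either strain, and each mouse gave 1 poly-A library. The comparison asks which of these genes differ in basal mRNA level between the strains.

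The PSD is a dense protein layer beneath the membrane of excitatory synapses, where scaffold proteins hold glutamate receptors beside their signalling partners and the actin cytoskeleton. Dlg proteins bind receptors at the membrane, Dlgap proteins link them to Shank, and Shank binds Homer, which reaches the metabotropic glutamate receptors. Across the synaptic cleft, neuroligins and LRRTM proteins bind presynaptic neurexins. Dlgap3 and Shank3 are abundant in the striatum, and mice that lack either gene groom excessively.

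The link from Dlgap to Shank is made by the end of the Dlgap protein, which fits into the PDZ domain of Shank. The last 30 coding bases before the stop codon are shown for the 4 Dlgap genes and for Lrrtm1, because Dlgap3 and Lrrtm1 were among the members that differed between the strains and because the Dlgap ends show how close these paralogs are. They were read from the GRCm39 genome by the GENCODE annotation, at the coding end that most of the gene's protein-coding transcripts share, and the last 12 coding bases are in capitals.
Dlgap1: atctacatccccgaggcgCAGACCCGGCTC
Dlgap2: atctacatccctgaggccCAGACGCGGCTC
Dlgap3: atctacatccccgaggccCAGACCAGGCTG
Dlgap4: atttatgtccccgaggccCAGACCAGGCTC
Lrrtm1: caccagcagcctgcgaggGAATGCGAGGTG
All 5 lie on the forward strand, at chr17:71125197-71125226, chr8:14896676-14896705, chr4:127130129-127130158, chr2:156604791-156604820 and chr6:77222081-77222110 in the order shown. Pairs of Dlgap ends had between 24 and 27 of the 30 bases in common. Dlgap3 shared 27 with Dlgap1, 26 with Dlgap2 and 26 with Dlgap4.

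Between 96977262 and 116776714 reads per library were counted on genes. The strains were compared on these raw counts with edgeR's quasi-likelihood test, and p-values were adjusted over all genes by the Benjamini-Hochberg method. A gene was called at an adjusted p under 0.05, and values per mouse are normalized counts. Reads of both strains were aligned to the genome of B6, and a D2 read that differs from it may fail to align. B6 replicates 3 and 5 stood apart from the other B6 mice. They were the closest pair of libraries of a strain (mean chi-square 4.89 per gene, where the next lowest pair had 17.5), and each had 85.5 to 119 with the other B6 mice. The results below are also given without them where that changes a call, a direction or a count.

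Of the 33 members, 8 were called (24.2%), of which 6 were lower and 2 higher in D2. Among all genes 18.3% were called, 8.5% as higher and 9.83% as lower. Of the 10855 genes with a mean count at or above the lowest member's, 22.3% were called, which was near the share of called members. These genes were matched to the members only in the lower limit of their mean count. The median log2 fold change (D2 against B6) came to -0.06 over the members and 0.00 over all genes, and 25 of the 33 members (75.8%) had a negative value, against 49.3% of all genes. Without B6 replicates 3 and 5 the median was -0.04 and 20 of the 33 members (60.6%) were negative, against 49.6% of all genes. The strains did not overlap in 6 members, and in 16% of all genes. In bulk tissue, fewer cells of a type and less RNA per cell cannot be told apart.

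**Figure D1:**
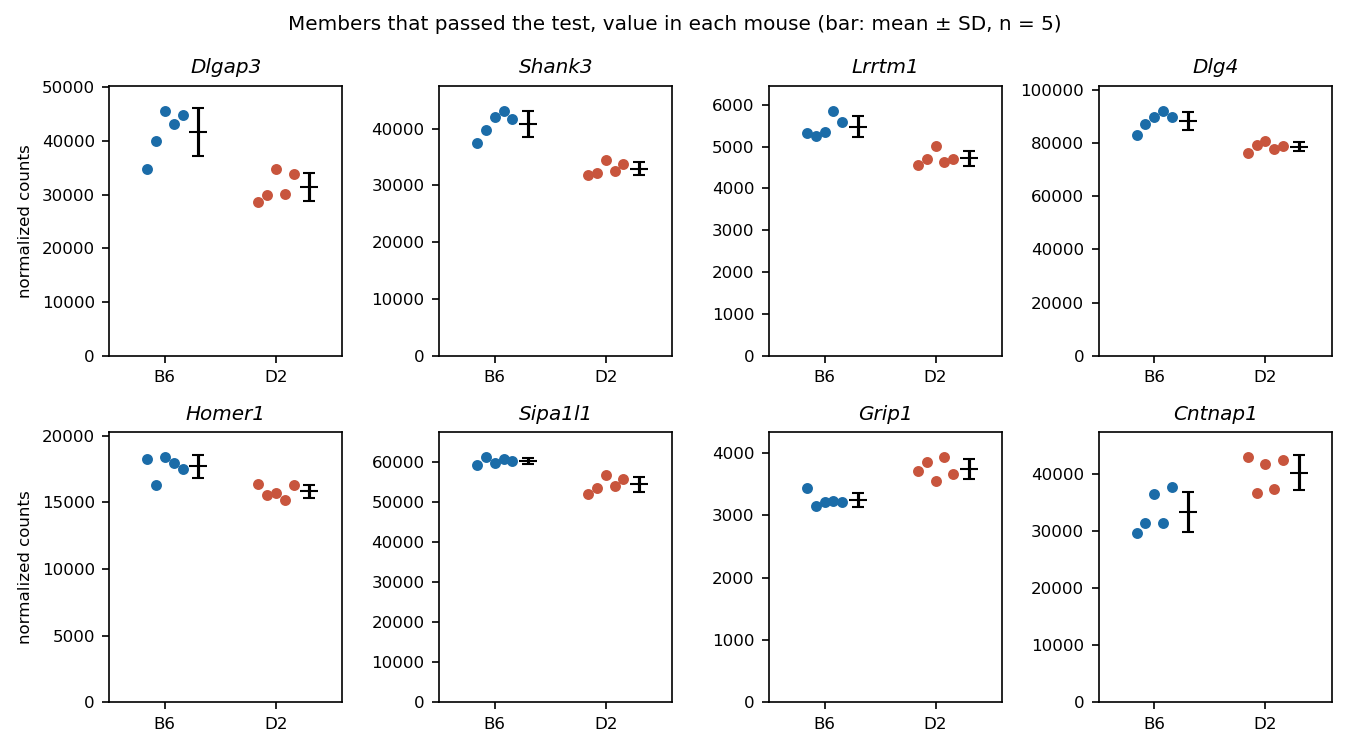
Normalized counts (axes from 0) of the 8 called members in each of the 5 B6 and 5 D2 mice, with the mean and SD beside the points. Dlgap3 had the most negative log2 fold change (-0.41), Cntnap1 the most positive (0.27), and the strains overlapped in Homer1 and Cntnap1.

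The Dlg proteins are membrane-associated guanylate kinases, and Dlg4 encodes PSD-95, the most studied scaffold of excitatory synapses. Dlg4 (ENSMUSG00000020886, chromosome 11 from 69907768 to 69938348 on GRCm39) had 83081, 87205, 89695, 92134 and 89544 normalized counts in the B6 mice. In the D2 mice it had 76153, 79362, 80680, 77610 and 78955. Every D2 mouse was below every B6 mouse, and the D2 mean was 88.9% of the B6 mean. The log2 fold change was -0.17 (standard error 0.037, adjusted p = 0.0059). Dlg1 (0.04), Dlg2 (-0.04) and Dlg3 (-0.10, adjusted p = 0.068), which encode SAP97, PSD-93 and SAP102, did not pass the test.

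The Dlgap (SAPAP) proteins bind the guanylate kinase domain of the Dlg proteins. Dlgap3 (ENSMUSG00000042388, chromosome 4 from 127062750 to 127130847) had 34788, 39960, 45623, 43203 and 44841 normalized counts in B6, and 28699, 29877, 34694, 30101 and 33796 in D2. The strains did not overlap, but the highest D2 mouse, replicate 3, and the lowest B6 mouse, replicate 1, were close. The D2 mean was 75.4% of the B6 mean, a log2 fold change of -0.41 (standard error 0.076, adjusted p = 0.0021). Dlgap2 (-0.15, adjusted p = 0.10), Dlgap4 (-0.11, adjusted p = 0.091) and Dlgap1 (-0.14, adjusted p = 0.73) did not pass the test.

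Shank proteins join the Dlgap and Homer layers of the PSD. Shank3 (ENSMUSG00000022623, chromosome 15 from 89383826 to 89444464) had 37460, 39772, 41977, 43178 and 41726 normalized counts in B6. The D2 mice had 31875, 32200, 34447, 32575 and 33698, all below the B6 mice. At a D2 mean of 80.7% of the B6 mean, Shank3 had the lowest adjusted p of the members (log2 fold change -0.31, standard error 0.043, adjusted p = 1.96e-04). Shank1 (-0.20, standard error 0.11, adjusted p = 0.25) and Shank2 (-0.05, adjusted p = 0.58) were not called.

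Homer1 (ENSMUSG00000007617, chromosome 13 from 93436143 to 93541637) encodes both long Homer adaptors and a short form that neuronal activity induces, which gene counts do not separate. It had 18232, 16325, 18402, 17976 and 17541 normalized counts in B6 and 16361, 15574, 15721, 15172 and 16270 in D2. B6 replicate 2 lay within the D2 values, and 4 of the 5 D2 mice were below every B6 mouse. The log2 fold change was -0.16 (standard error 0.039, adjusted p = 0.011). Homer2 (-0.20, standard error 0.23) and Homer3 (-0.06) were not called.

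**Figure D2:**
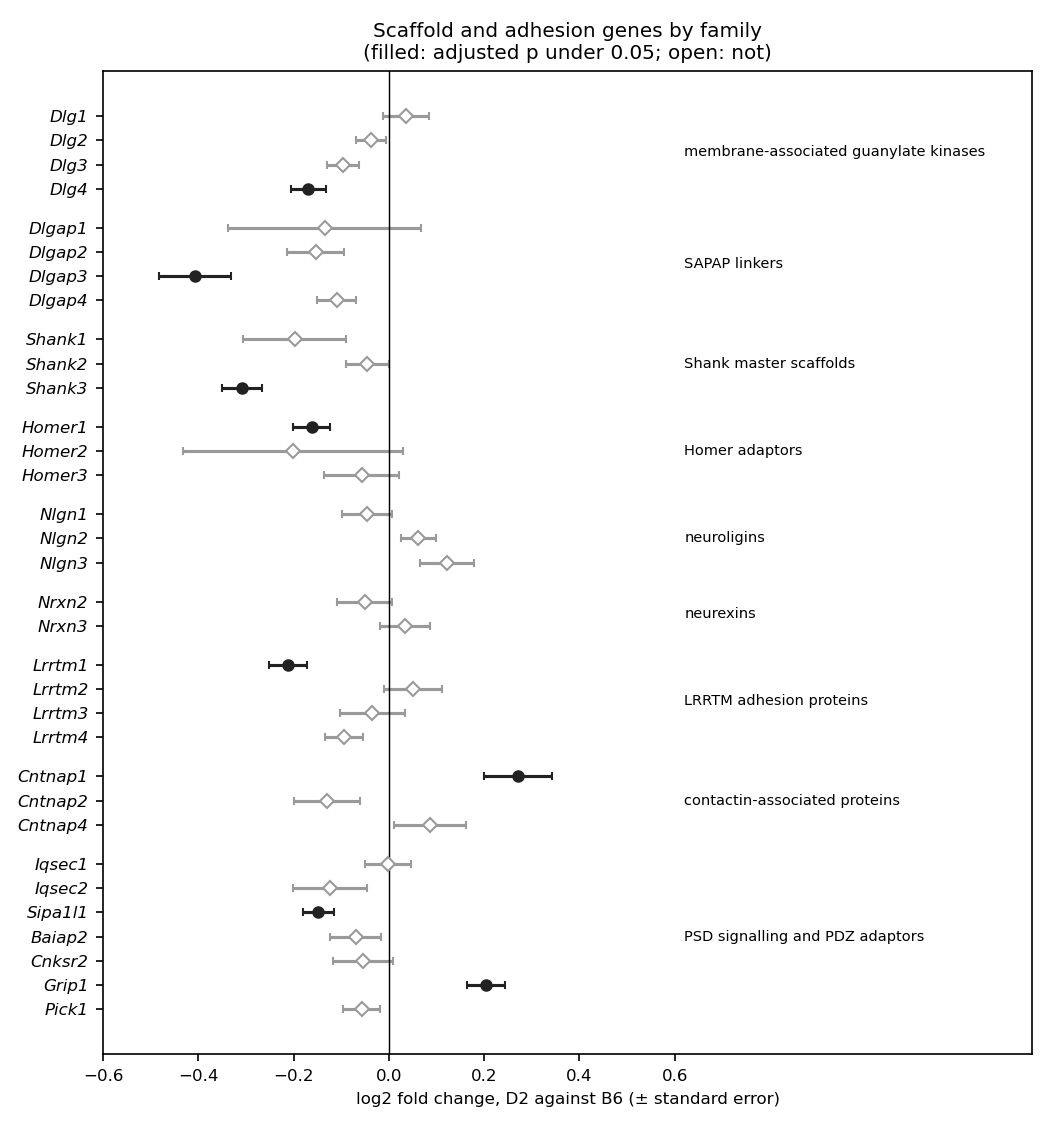
Log2 fold change of D2 against B6 with its standard error for the 33 members by family; filled circles passed an adjusted p of 0.05 and open diamonds did not. The Dlg, Dlgap, Shank, Homer and LRRTM families each had 1 called member, which was lower in D2. Of the contactin-associated proteins 1 of 3 was called, as higher, and of the adaptors 2 of 7, 1 higher and 1 lower. None of the 3 neuroligins and 2 neurexins was called. In all, 8 of the 33 members were called (24.2%), against 18.3% of all genes.

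Among the adhesion genes, Lrrtm1 encodes a leucine-rich repeat protein of the postsynaptic membrane that binds neurexins. Lrrtm1 (ENSMUSG00000060780, chromosome 6 from 77218820 to 77235200) had 5317, 5244, 5339, 5859 and 5583 normalized counts in B6, against 4550, 4700, 5022, 4629 and 4696 in D2. No D2 mouse reached the B6 values. The log2 fold change was -0.21 (standard error 0.040, adjusted p = 0.0021). Lrrtm2 (0.05), Lrrtm3 (-0.04) and Lrrtm4 (-0.09) did not pass.

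Neuroligins are the postsynaptic partners of neurexins. Nlgn2, which is found at inhibitory synapses, had log2 0.06, with 31787 to 34877 normalized counts in B6 and 33692 to 36137 in D2. Nlgn1, which is found at excitatory synapses, had -0.05 and Nlgn3 0.12 (adjusted p = 0.17). The neurexins Nrxn2 (-0.05) and Nrxn3 (0.03) had adjusted p of 0.64 and 0.74. None of these 5 genes was called, and the strains overlapped in each.

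Cntnap1 encodes Caspr, an axonal protein of the paranodal junctions beside the nodes of Ranvier, where myelin meets the axon. Cntnap1 (ENSMUSG00000017167, chromosome 11 from 101061349 to 101082747) had 29690, 31418, 36422, 31337 and 37617 normalized counts in B6 and 42922, 36555, 41765, 37263 and 42377 in D2. B6 replicates 3 and 5 were the highest of their strain, and 3 of the 5 D2 mice were above every B6 mouse. The log2 fold change was 0.27 (standard error 0.072, adjusted p = 0.019), and the call was lost without D2 replicate 3 or without D2 replicate 5 (adjusted p up to 0.058). Of its exon bases, 14.3% overlap exons of Ezh1 and Plekhh3 on the opposite strand; the kit was stranded but the strand setting of the counting was not stated. Cntnap2 (-0.13), which encodes Caspr2 of the juxtaparanodes, and Cntnap4 (0.09) did not pass.

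Of the 7 signalling and PDZ adaptors, Sipa1l1 and Grip1 were called in opposite directions. Sipa1l1 (ENSMUSG00000042700, chromosome 12 from 82216094 to 82498560), a GTPase-activating protein for Rap that binds PSD-95, had 59442, 61328, 59795, 60793 and 60459 normalized counts in B6. In D2 it had 52116, 53712, 56717, 54074 and 55784, without overlap. Its log2 fold change was -0.15 (standard error 0.033, adjusted p = 0.0070).

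Grip1 (ENSMUSG00000034813, chromosome 10 from 119289735 to 119923171) encodes a protein of several PDZ domains that binds AMPA receptor subunits. Its normalized counts were 3445, 3152, 3207, 3235 and 3216 in B6 and 3718, 3860, 3551, 3935 and 3655 in D2. The lowest D2 mouse (3551) exceeded the highest B6 mouse (3445), with a log2 fold change of 0.20 (standard error 0.039, adjusted p = 0.0026). Pick1 (-0.06), another PDZ protein that binds AMPA receptors, Baiap2 (-0.07), Cnksr2 (-0.05) and the Arf exchange factors Iqsec1 (0.00) and Iqsec2 (-0.12) were not called.

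Whether paralogs of a family changed unequally was tested on the log2 ratio of their normalized counts in each mouse, over all 31 pairs within the families. By a two-sided exact permutation test, 10 pairs had an unadjusted p under 0.05, and 0 of 31 passed the Benjamini-Hochberg adjustment (smallest adjusted p = 0.070; smallest possible unadjusted p = 0.0079). The log2 ratio of Dlgap3 to Dlgap4 was 0.31 in B6 (SD 0.097, n = 5), and in the D2 mice it was 0.01 (SD 0.092, n = 5). Shank3 to Shank2 gave 0.88 in B6 (SD 0.087, n = 5), where the D2 mice gave 0.62 (SD 0.077, n = 5). In both ratios every D2 mouse was below every B6 mouse. These were the pairs with the smallest unadjusted p of the 31. Each holds a called member and neither passed the adjustment, so their separation is not evidence that the paralogs differ. An earlier version took the 15 pairs with a called member alone, and 8 of them passed. It was replaced after that count was seen, because those pairs had been picked by the same contrast, and its 8 pairs are not evidence that the paralogs differ.

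On a scale per length (CPM per kilobase of annotated exon, where CPM is the count per 1000000 reads of the TMM-scaled library), Dlg4 was the highest member in B6, at 61.7 ± 2.39 (SD, n = 5), while the D2 mice had 54.9 ± 1.21 (SD, n = 5). Within the Dlg family it was followed in B6 by Dlg3 (31.9), Dlg2 (27.3) and Dlg1 (13.1). Dlgap3 (49.5 ± 5.26 in B6, 37.3 ± 3.14 in D2, SD, n = 5) was above Dlgap4 (31.6 in B6, 29.3 in D2). The B6 means of Shank3 (40.9 ± 2.25, SD, n = 5) and Shank1 (35.1 ± 6.87, SD, n = 5) differed by less than the SD of Shank1. That SD mixes different mice. B6 replicates 3 and 5 had more normalized counts of Shank1 (49086 and 48349) than of Shank3 (41977 and 41726). Each of the other B6 mice had fewer of Shank1 (34184 to 34540) than of Shank3 (37460 to 43178). Shank3 has fewer exon bases (9236 against 10576), so its level per length was also higher in those other mice. The lowest member was Homer3, at 1.73 in B6 and 1.66 in D2, and Nlgn2 made up 81.5% of the summed neuroligin level in B6 and 81.8% in D2.

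**Figure D3:**
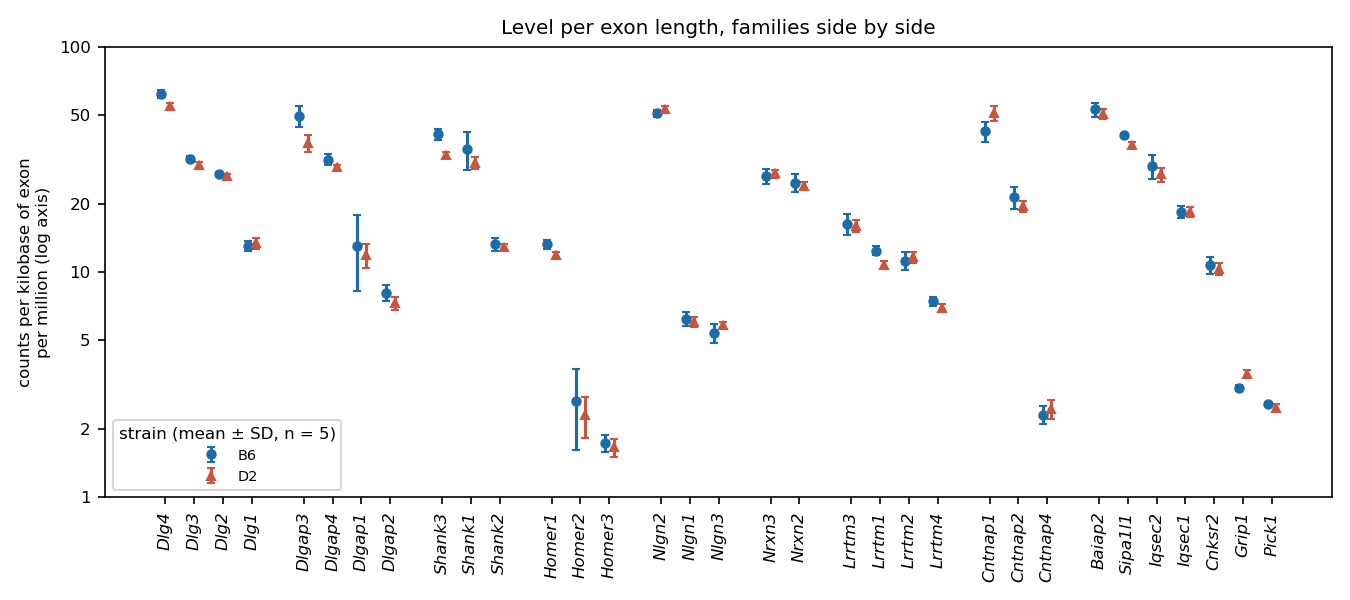
Level per length (CPM per kilobase of exon, log axis, mean and SD of 5 mice) of the 33 members in B6 (circles) and D2 (triangles), sorted within each family. Dlg4 was highest in B6 at 61.7 and Homer3 lowest at 1.73.

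The libraries differed in markers of other cell types. Markers of cortical neurons (8 genes, none called and none at 0 in every library) summed to 982 and 998 CPM in B6 replicates 3 and 5. The other B6 mice had 143 to 224 and the D2 mice 293 to 658. Slc17a7, the largest part in B6 replicates 3 and 5, had 83613 and 85477 normalized counts there. It had 6173 to 14039 in the other B6 mice. Of the 8 genes, Cux2 alone went the other way, with 5352 and 5721 against 6750 to 7387. Markers of striatal neurons summed to 4987 to 6305 in B6 and 4123 to 4983 in D2, with 7 of 10 called, all lower in D2. The called ones ranged from Rgs9 (log2 -0.25) to Penk (-0.52). Those not called were Ppp1r1b (-0.23, adjusted p = 0.071), Drd1 (-0.06, adjusted p = 0.67) and Tac1 (-0.02, adjusted p = 0.95). Oligodendrocyte markers summed to 4293 to 6202 in B6 and 3242 to 4734 in D2, with 6 of 6 lower in the D2 mean, of which 4 were called. The part of the striatal and oligodendrocyte markers in the strain differences of the members was not tested.

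Several members followed the 2 B6 mice with high cortical markers. The same 2 mice had the highest oligodendrocyte sums of B6, 6202 and 6171 CPM against 4293 to 5149 in the others. Their striatal sums were the lowest of B6, 5015 and 4987 CPM against 5594 to 6305. Among the B6 mice, the cortical level cannot be told apart from these levels. Dlgap1 had 38429 and 37868 normalized counts in B6 replicates 3 and 5, 19216 to 20459 in the other B6 mice and 20644 to 27080 in D2. Homer2 had 5710 and 5653 in those B6 mice, 2629 to 2949 in the other B6 mice and 2713 to 4326 in D2. Shank1 had 49086 and 48349, against 34184 to 34540 and 31993 to 37616. In Cntnap2 and Lrrtm3 the same 2 B6 mice were the lowest of their strain. The coefficient of variation among B6 mice was at least 10% in 8 members, up to 39.4% in Homer2, and was 1.26% in Sipa1l1.

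**Figure D4:**
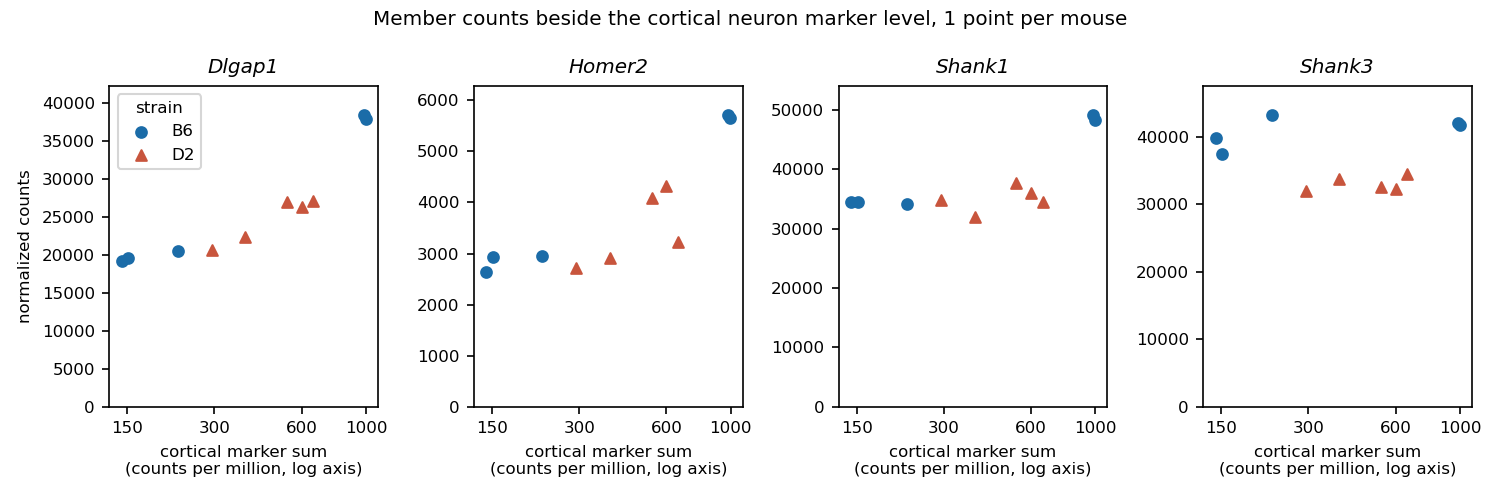
Normalized counts (from 0) of 4 members against the summed cortical neuron markers (CPM, log axis), 1 point per mouse, B6 as circles and D2 as triangles. B6 replicates 3 and 5 lie at the far right (982 and 998) and are high in Dlgap1, Homer2 and Shank1, whereas Shank3 separates the strains.

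With the log2 cortical marker sum as a covariate, 18 members were called, 15 lower and 3 higher in D2, where 26.4% of all genes were called. The 8 members called without it were among them. No D2 mouse had a cortical marker sum within either range of the B6 mice (143 to 224 and 982 to 998), so this fit rests on a straight line, on the log2 scale, between the B6 mice at both ends. The added members were Dlg3, Dlgap1, Dlgap2, Dlgap4, Shank1, Homer2, Nlgn3, Lrrtm4, Iqsec2 and Cnksr2. With B6 replicates 3 and 5 left out instead, 10 members were called, the same 8 with Dlgap1 and Cntnap2, where 19.2% of all genes were called. Dlgap1 was lower in D2 with the covariate (-0.24, adjusted p = 1.40e-04) and higher in D2 without the 2 mice (0.32, adjusted p = 0.016), so no direction is given for it. In all, 9 members had another sign without the 2 mice than in the fit of all 10. Among them, Homer2 went from -0.20, and -0.31 (called) with the covariate, to 0.28 (adjusted p = 0.18), and Shank1 from -0.20, and -0.26 (called) with the covariate, to 0.02 (adjusted p = 0.80). The others were Dlg1, Shank2, Nrxn2, Nrxn3, Iqsec1 and Cnksr2, with values between -0.03 and 0.06 without the 2 mice.

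**Figure D5:**
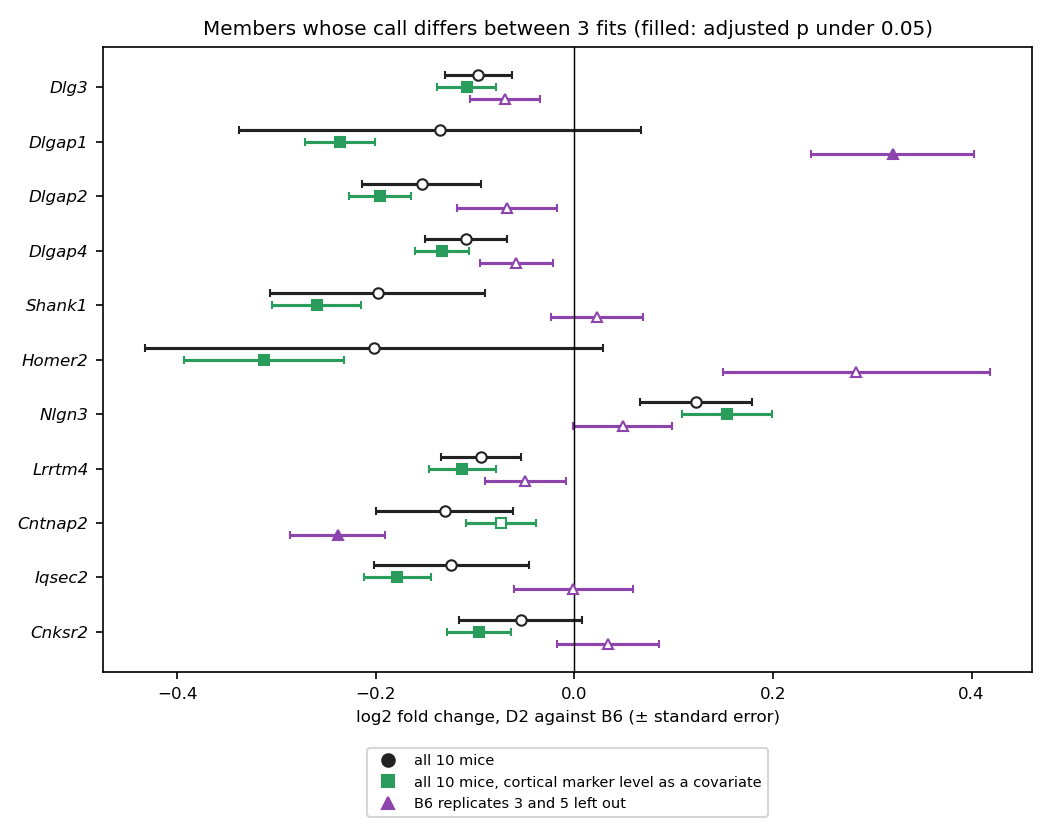
Log2 fold change of D2 against B6 with its standard error for the 11 members whose call differed between the fit of all 10 mice, that fit with the cortical marker covariate, and the fit without B6 replicates 3 and 5 (filled: adjusted p under 0.05). Dlgap1 moved from -0.14 to -0.24 with the covariate and to 0.32 without the 2 mice.

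Of 44 other scaffold genes of the PSD and of inhibitory synapses, 7 were called (15.9%), 2 higher and 5 lower in D2. The guanylate kinase scaffolds Mpp3 (log2 0.37, adjusted p = 2.76e-04) and Mpp2 (0.20, adjusted p = 0.0045) were higher, and they lie 0.828 and 0.885 Mb from the start of Cntnap1. Of the 102 other genes that start within 1 Mb of that point, 19 were called (18.6%), 8 higher and 11 lower. Among all genes the share was 18.3%. Around the start of Dlg4 the share was higher, with 41 of 136 other genes called (30.1%), 20 higher and 21 lower. The ephrin Efnb3, named below, lies in that window. Around the remaining called members the share ran from 0% (Lrrtm1 and Sipa1l1) to 16.1% (Homer1). What these shares mean for the calls was not tested. Cript, which binds PSD-95, was lower (-0.21, adjusted p = 0.0081). Insyn1 (-0.26, adjusted p = 0.043), an inhibitory synapse protein, kept its call in 2 of the 10 fits with 1 mouse removed, and lost it without any one of B6 replicates 3, 4 and 5 or D2 replicates 1, 2, 3, 4 and 5. Its highest counts were 21028 and 21199, in B6 replicates 3 and 5, and without both it had -0.10 (adjusted p = 0.12). Lzts1 (-0.19, adjusted p = 0.022) was called in 8, and lost without D2 replicate 2 or 4, and without both B6 replicates 3 and 5 (-0.18, adjusted p = 0.054).

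Of 67 other adhesion genes, 11 were called (16.4%), 3 higher and 8 lower in D2. Cntnap3, a further contactin-associated protein, was lower (-0.53, adjusted p = 5.42e-05), as was the ephrin Efnb3 (-0.24, adjusted p = 0.0037). Flrt2 (0.32, adjusted p = 9.28e-04) and the receptor phosphatase Ptprf (0.20, adjusted p = 1.49e-04) were higher. Cntnap5a (0.19, adjusted p = 0.035) was called in 5 of the 10 fits that left out 1 mouse, and lost without B6 replicate 3, 4 or 5 or D2 replicate 1 or 3, and without both B6 replicates 3 and 5 (0.17, adjusted p = 0.10). The shares called in both lists were below that of all genes in the fit of all 10 mice only. With the covariate, 50% of the scaffold and 32.8% of the adhesion genes were called against 26.4% of all genes, and without B6 replicates 3 and 5, 22.7% and 32.8% against 19.2%.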

How the data were processed

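The members and the lists of other genes and markers were chosen with earlier results of these data known. The authors trimmed reads with fastp, aligned them with STAR 2.7.10b to GRCm39, sorted them with SAMtools 1.6 and counted them with featureCounts, and deposited raw counts of genes whose median was above 0. The sample labels and the methods name different providers of library construction. Symbols came from GENCODE release 39, which held 29519 of the 29883 genes. In R 4.3.3, edgeR 4.0.16 compared the strains by its two-sided quasi-likelihood test after TMM scaling, with Benjamini-Hochberg adjustment over all genes, a threshold of 0.05, and no covariates or further filter. A standard error is the size of the log2 fold change over the root of its F statistic. The test was checked on simulated data in which the set changes were larger than those of the called members. That check therefore does not bear on changes of the members' size.

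All 33 members are named. Of the other lists, the 5 called genes with the largest absolute log2 fold change and a mean of at least 100 counts are named. Alternatives were DESeq2 1.42.0, scaling in edgeR by DESeq2's size factors, by the upper quartile or by total counts, filterByExpr, at least 10 counts in every library, the cortical marker covariate, the replicate block, an adjusted p of 0.01 and leaving out each library. Leaving out B6 replicates 3 and 5 together, and the exact permutation tests of paralog ratios in both versions, were added after the data were seen. Tables and plots were made with Python 3.11.15. Each mouse was the replicate. No pair of libraries agreed within sampling noise (lowest mean chi-square per gene 4.89, for B6 replicates 3 and 5).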

Additional observations from a re-analysis of the deposited data

Results flagged for a closer look

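In 3 of the 66 groups of 5 mice (33 members in 2 strains), 1 mouse lay far from the other 4 by Dixon's criterion, where chance gives about 1 in 20 groups, or 3.3. Lrrtm3 had 9033 normalized counts in D2 replicate 5, against 7847 to 8089 in the other D2 mice. Baiap2, which links Rac to actin, had 58733 in B6 replicate 4, against 49333 to 52006. Grip1 had 3445 in B6 replicate 1, against 3152 to 3235, and this mouse was the B6 mouse nearest to the D2 values.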

How the results depend on the processing

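The 8 members stayed called under DESeq2, its size factors, total counts, upper-quartile normalization and both filters on low counts. The cortical marker covariate raised the called members from 8 to 18, those lower in D2 from 6 to 15, the other scaffold genes from 7 to 22 and the other adhesion genes from 11 to 22. Without B6 replicates 3 and 5 together, 22 other adhesion genes were called, Dlgap1 turned to 0.32, and 8 further members, none of them called in either fit, had another sign. At an adjusted p of 0.01, 6 members were called, 1 of them higher in D2, with 4 other scaffold and 6 other adhesion genes. With 1 library left out, 7 to 10 members were called, 1 to 3 higher and 6 to 8 lower, with 5 to 10 other scaffold and 6 to 13 other adhesion genes; the lowest adhesion counts came without D2 replicate 1 (6) and D2 replicate 2 (7), and 1 higher member was left without D2 replicate 3 or 5. For the paralog ratios, 0 of 31 pairs passed, and 8 of 15 passed where the pairs were limited to those with a called member, a choice made by the same contrast. With a library left out, too few assignments of the mice remain for this test to bear on stability. The replicate numbers did not pair the mice (correlations of same-numbered libraries from -0.44 to 0.40, over 0.1 in 2 of 5 pairs; 2 of 5 B6 and 0 of 5 D2 libraries correlated best with their own number), and with the replicate block 8 members were called. Depth did not limit the members, which had at least 761 counts per library.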
